A study of Homo sapiens with 2 samples.

Results

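The expression of 10 genes that carry or mark epithelial-mesenchymal transition (EMT) was examined in human HEK-293 cells that received a miR-204 mimic, beside HEK-293 cells that received a scrambled oligo. The genes were the transcription factors ZEB1, ZEB2, SNAI1, SNAI2 and TWIST1, the cadherins CDH1 and CDH2, the mesenchymal proteins VIM and FN1, and the catenin CTNNB1. They were chosen by name, and every probe whose gene name in the array files was a member's symbol was taken, other than control spots. This gave 16 probes for the 10 genes, of 41000 probes and 30484 gene names in all. ZEB1 was the only member that passed a 2-fold threshold, with a lower signal in the miR-204 RNA on both arrays. Its signal in that RNA was not well above background, and the difference was smaller when mean spot signals with loess normalization were used in place of processed signals. CDH1, SNAI2 and CDH2 were higher and SNAI1 and VIM lower on both arrays, each by less than 2-fold, with CDH2 close to 0. Their means lay between the 5th and 95th percentile, -0.40 and 0.38, of the probes well above background in every channel. Of those probes, 52.7% had opposite signs on the 2 arrays. ZEB2, TWIST1, FN1 and CTNNB1 each had a probe whose direction differed between the arrays.

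EMT is a change of state in which epithelial cells loosen their contacts and acquire motile, fibroblast-like features, and it is known from development, wound healing and tumour invasion. The ZEB, SNAIL and TWIST factors bind E-box motifs and repress epithelial genes, above all CDH1, which encodes the adherens junction protein E-cadherin. N-cadherin (CDH2), vimentin (VIM) and fibronectin (FN1) are the usual mesenchymal markers. Beta-catenin (CTNNB1) links cadherins to the actin cytoskeleton and also acts as a coactivator in Wnt signaling. MicroRNAs of the miR-200 family and miR-205 are well known to repress ZEB1 and ZEB2.

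The labels give HEK-293, an embryonic kidney line of human origin, grown in serum, with either the scrambled oligo or the miR-204 mimic at 75 nM for 48 h before RNA isolation. Both groups were thus transfected cells of 1 line, and an untransfected group was not analysed here. RNA of the 2 groups was hybridized together on a 2-colour Agilent whole genome array, with the control RNA in Cy3 and the miR-204 RNA in Cy5, and again on a second array with the dyes exchanged (the swapped array, marked dye-swap in the plots). No second transfection is named, so the 2 arrays count as 1 replicate, the spread between cultures was not measured, and no test compares the conditions. The array reads messenger RNA and not the mature miR-204.

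The microRNA sequences are shown to place the transfected miRNA beside those known to act on the ZEB genes. They are RefSeq mature sequences, written 5′ to 3′, with the seed (bases 2 to 8, which pair with target messages) in capitals. The labels do not give the letters of the mimic itself. The first pair shares the miR-204 seed.
hsa-miR-204-5p: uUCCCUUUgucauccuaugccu
hsa-miR-211-5p: uUCCCUUUgucauccuucgccu
hsa-miR-200b-3p: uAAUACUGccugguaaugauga
hsa-miR-200c-3p: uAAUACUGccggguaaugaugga
hsa-miR-200a-3p: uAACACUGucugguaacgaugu
hsa-miR-141-3p: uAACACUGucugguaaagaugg
hsa-miR-205-5p: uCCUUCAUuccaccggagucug
On GRCh38.p14, miR-204-5p lies at chr9:70810031-70810052 on the minus strand and miR-211-5p at chr15:31065095-31065116 on the minus strand. They differ at 2 of their 22 positions, both outside the seed. Of the seed positions, miR-204-5p has the same base as miR-200b-3p at 1, as miR-200a-3p at 2 and as miR-205-5p at 2. Within the miR-200 family, miR-200b-3p and miR-200c-3p share a seed, and miR-200a-3p and miR-141-3p share another.

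Ratios are given as the log2 of miR-204 over control RNA, from processed signals that were quantile normalized across the 4 channels, with the ratio of the swapped array turned. A probe was counted when either RNA, control or miR-204, gave a signal well above background on each array, and called at a mean log2 of -1 or below, or of 1 or above, with the same sign on both arrays. Of 25340 counted probes, 0.521% were called lower and 0.118% higher. For the 23224 probes that stood well above background in every channel, the ratios of the 2 arrays correlated across probes at r = -0.08 (Spearman's rho = -0.07, genes not being independent replicates), and 52.7% had opposite signs on the 2 arrays. The median probe differed by 0.31 between the arrays, and the mean of the 2 arrays ran from -0.40 at the 5th percentile to 0.38 at the 95th. The number of spots well above background in a channel ranged from 25284 to 29024. Of markers known for HEK-293 cells, 6 of 7 were well above background in all 4 channels, namely NEFL, NEFM, INA, KRT8, KRT18 and VIM, and PAX2 was not. Of markers of other cell types, these numbers were 3 of 6 for fibroblasts (COL1A1, COL3A1 and DCN), 1 of 4 for endothelial cells (VWF) and 0 of 3 for hepatocytes.

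Of the 16 EMT probes, 14 were counted, and each of the 10 genes had at least 1 counted probe. Among the counted probes, 1 was lower by 2-fold and 0 were higher. The median of the mean log2 ratios was -0.13 over the 14 counted probes, against -0.001 over all counted probes. For these 14 probes, the first array gave 0.01 and the swapped array -0.16. The median of the EMT probes depended on the filter. It was -0.01 without a filter on signal, -0.01 with all 4 channels required to be well above background and -0.21 with flagged probes left out whole. In all 4 channels, 12 of the EMT probes were well above background, with means from -0.34 to 0.39. Of these, 4 were lower on both arrays, 4 were higher on both and 4 had opposite signs. RNA of all cells of a culture is measured together, so that fewer cells of a kind and less RNA per cell cannot be told apart.

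**Figure D1:**
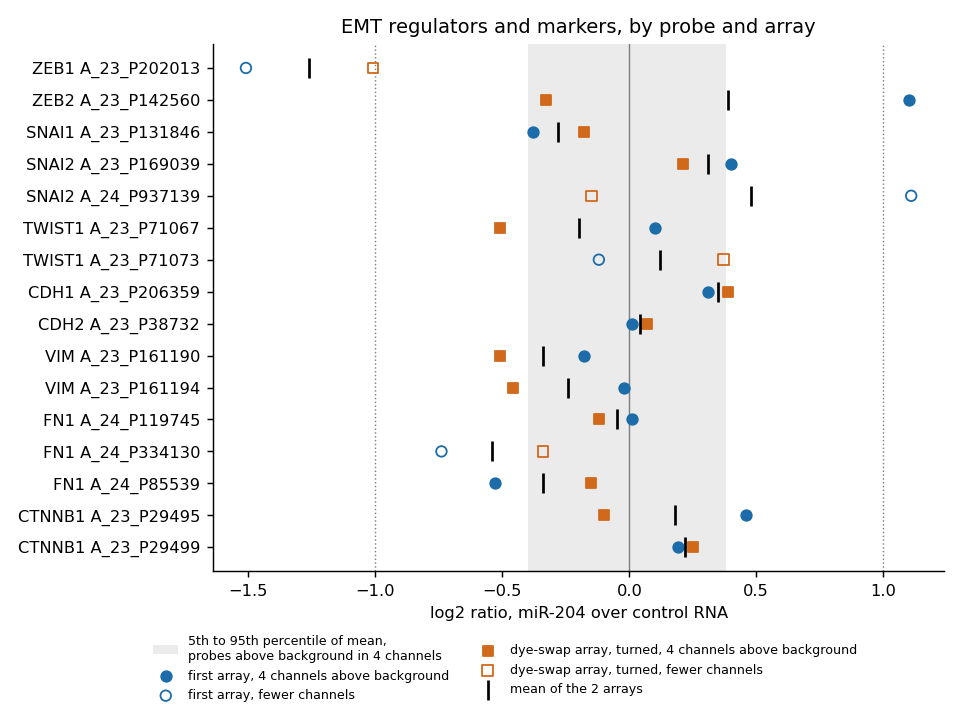
Log2 ratio of miR-204 over control RNA for each of the 16 EMT probes, with the first array as blue circles, the turned swapped array as orange squares and the mean of the 2 arrays as a black bar. Open symbols mark probes with at least 1 channel not well above background, the grey band runs from -0.40 to 0.38 (5th to 95th percentile of the mean over 23224 probes) and the dotted lines mark 2-fold, which ZEB1 passes on both arrays, and ZEB2 and the uncounted SNAI2 probe A_24_P937139 on the first array alone.

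ZEB1, a zinc finger and homeodomain repressor of CDH1, was measured by 1 probe, A_23_P202013, which the files place at chr10:31852945-31853004 on the plus strand of hg18. On the first array its processed signal was 46.3 in control RNA and 16.7 in miR-204 RNA. On the swapped array these signals were 33.3 and 15.6. Both control signals lay above both miR-204 signals. The log2 ratios were -1.51 and -1.01, with a mean of -1.26, and the probe was among the 0.521% of counted probes called lower. As the miR-204 signal was not well above background on either array, the size of the difference is uncertain. On processed signals, the mean normalized control signal of ZEB1 was 39.3. It was 1.94-fold above 20.2, the lowest normalized signal that was still well above background (mean of both arrays). That lowest signal was taken over all probes and is not the detection limit of the ZEB1 spot. The value of 1.94-fold is therefore not a strict lower bound.

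The ZEB1 spot was dim before any correction. On the first array the mean spot signal was 93.4 over a local background of 62.5 in the control channel, and 84.2 over 68 in the miR-204 channel. On the swapped array it was 124 over 61 in the control channel and 69.2 over 52 in the miR-204 channel. These values carry no dye correction, and Cy5 held the miR-204 RNA on the first array and the control RNA on the second. With normexp background correction, an offset of 50 added to both channels and loess normalization, the ZEB1 ratios were -0.35 and -0.13, with a mean of -0.24. Without background correction, also with loess, they were -0.37 and -0.30, with a mean of -0.33. Both means are smaller than the 1.94-fold given above, which holds for processed signals only. The sign was the same on both arrays under each of these settings, and the 2-fold call was lost under both. Each of them changed the background step and the normalization together. An offset or uncorrected background in both channels narrows the ratio of a dim spot. On processed signals the ZEB1 mean was -1.28 without further normalization and -1.27 with the median of each array set to 0. Loess was not run on processed signals, and the part of either step was not tested.

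ZEB2, the paralog of ZEB1 and likewise a repressor of CDH1, was measured by the probe A_23_P142560 at chr2:144862731-144862790 on the minus strand of hg18. Its signal on the first array was 280 in control RNA and 604 in miR-204 RNA. On the swapped array the signal was 239 in control RNA and 192 in miR-204 RNA. The miR-204 RNA was thus the brighter on the first array and the dimmer on the swapped array. The log2 ratios of 1.10 and -0.33 gave a mean of 0.39. The first of these was at or above 99.6% of the 23224 probes on that array, and the dye-swap ratio at or above 9.47%. The arrays differed by 1.43 for this probe, and ZEB2 was past 2-fold on the first array alone.

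**Figure D2:**
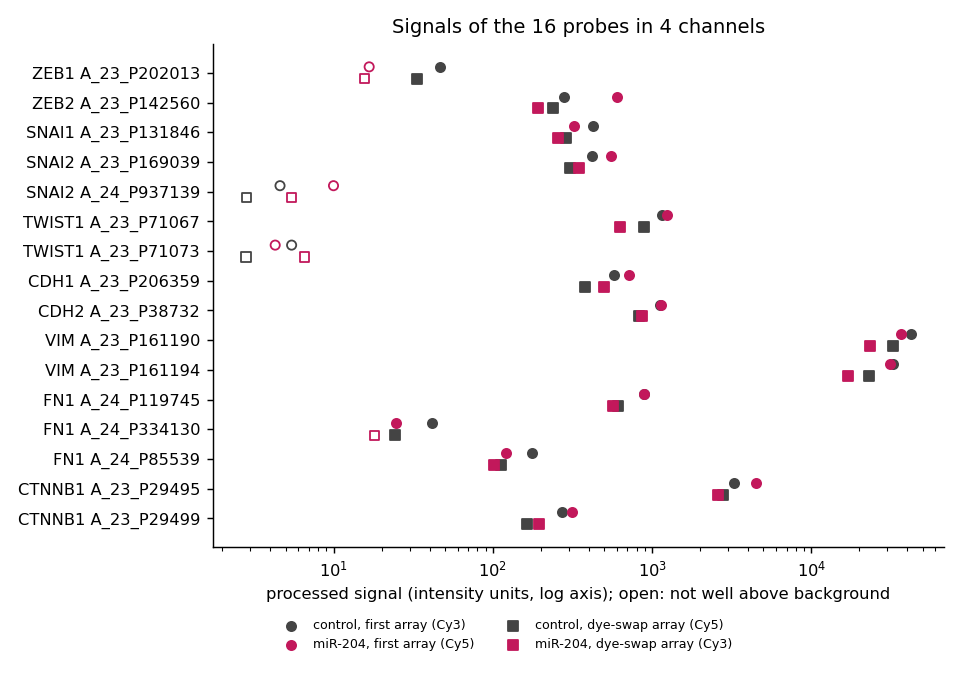
Processed signal in intensity units, on a log axis, of each of the 16 EMT probes in control RNA (grey) and miR-204 RNA (red) on the first array (circles) and the swapped array (squares), open where the channel was not well above background. Both miR-204 signals of ZEB1 are open and lie at 16.7 and 15.6, and the 4 channels of the SNAI2 probe A_24_P937139 and of the TWIST1 probe A_23_P71073 all lie below 10.

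SNAI1, which encodes the zinc finger repressor Snail, was measured by the probe A_23_P131846 at chr20:48038577-48038636 on the plus strand of hg18. The signal was 423 in control RNA and 324 in miR-204 RNA on the first array, and 288 and 256 on the swapped array. Within each array the miR-204 RNA was the dimmer. The log2 ratios were -0.38 and -0.18, and 11.2% of the 23224 probes had a mean at or below the -0.28 of SNAI1.

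SNAI2, which encodes the related repressor Slug, had 1 counted probe, A_23_P169039, at chr8:49993263-49993322 on the minus strand of hg18. The signal was 419 in control RNA and 551 in miR-204 RNA on the first array, and 304 and 348 on the swapped array. The miR-204 RNA was the brighter on both, opposite to SNAI1, with log2 ratios of 0.40 and 0.21 and a mean of 0.31, at or above 91.3% of probes. The other SNAI2 probe, A_24_P937139, designed on a partial Slug message and without a position in the files, reached well above background in no channel and was not counted.

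TWIST1, a basic helix-loop-helix factor of mesoderm and neural crest that represses CDH1, was measured by 2 probes, of which A_23_P71067 at chr7:19122025-19122084 on the minus strand of hg18 was counted. Its signal was 1149 in control RNA and 1238 in miR-204 RNA on the first array, and 891 and 624 on the swapped array. The arrays gave opposite directions, with log2 ratios of 0.10 and -0.51 and a mean of -0.20. The probe A_23_P71073, at chr7:19122170-19122229 in the same gene, reached well above background in no channel and was not counted.

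CDH1, which encodes E-cadherin, was measured by the probe A_23_P206359 at chr16:67426715-67426774 on the plus strand of hg18. This probe is spotted 10 times, and 8 spots were used, as 2 carried an outlier flag. The mean signal was 576 in control RNA and 715 in miR-204 RNA on the first array, and 380 and 498 on the swapped array. The miR-204 RNA was the brighter on both. The first array gave a log2 ratio of 0.31 ± 0.09 (SD over 8 spots) and the swapped array 0.39 ± 0.07, and 8 of 8 spots were above 0 on each. The spots ran from 0.12 to 0.45 with a median of 0.33 on the first array, and from 0.28 to 0.50 with a median of 0.37 on the swapped array. The mean of 0.35 was at or above 93.6% of the 23224 probes, and corresponds to a 1.28-fold higher signal in miR-204 RNA. The 2 arrays differed by 0.08 for CDH1, less than the 0.31 of the median probe. With the flagged spots kept, the mean was 0.34.

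The spots of a probe lie on the same array and share its RNA and dyes, and their SD describes the printing and reading of that array only. Over the 205 probes spotted 10 times with every channel well above background, the median SD over spots was 0.05 on each array, whereas the median difference between the arrays was 0.31. Every used spot was above 0 on both arrays for 24 of these 205 probes, and 6 of the 24, CDH1 among them, had a mean at least that of CDH1. Every used spot was below 0 on both arrays for 20, and for 63 the spots were all above 0 on 1 array and all below on the other.

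**Figure D3:**
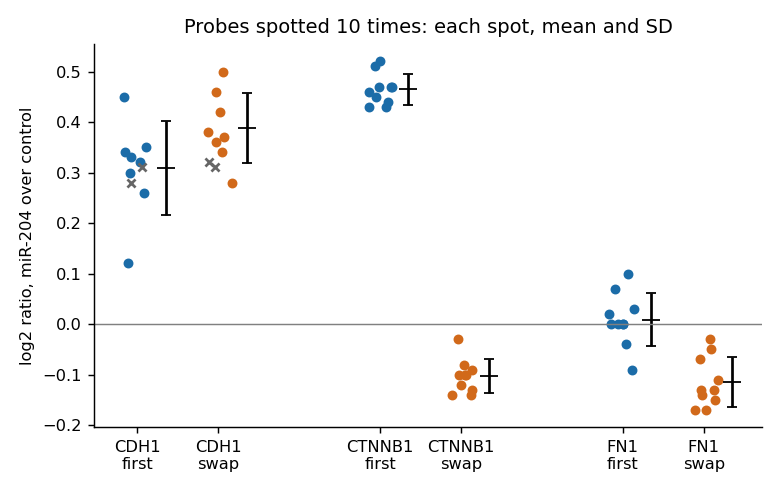
Log2 ratio of miR-204 over control RNA at each spot of the 3 EMT probes that are spotted 10 times, on the first array (blue) and the turned swapped array (orange), with the mean and SD over the used spots as black bars and flagged CDH1 spots as grey crosses. The used spots of CDH1 are above 0 on both arrays, those of CTNNB1 run from 0.43 to 0.52 on the first array and from -0.14 to -0.03 on the swapped array, and those of FN1 lie between -0.17 and 0.10.

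CDH2, which encodes N-cadherin, was measured by the probe A_23_P38732 at chr18:23786079-23786138 on the minus strand of hg18. Its signal was 1122 in control RNA and 1133 in miR-204 RNA on the first array, and 823 and 863 on the swapped array. The log2 ratios of 0.01 and 0.07 were close to 0 and to each other. The mean of 0.04 was at or above 56% of the probes, near the middle of the array. CDH1 and CDH2, whose exchange is described in EMT, thus had means of 0.35 and 0.04. The difference between them was not tested.

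VIM, which encodes the intermediate filament protein vimentin, was measured by 2 probes. The signal of A_23_P161190, at chr10:17318353-17319262 on the plus strand of hg18, was 42372 in control RNA and 36684 in miR-204 RNA on the first array, and 32680 and 23200 on the swapped array. The signal of A_23_P161194, at chr10:17317191-17317250 in the same gene, was 32669 and 31201 on the first array, and 23126 and 17012 on the swapped array. Both probes were lower in miR-204 RNA on both arrays. The log2 ratios were -0.18 and -0.51 for the former probe and -0.02 and -0.46 for the latter, so that most of the difference came from the swapped array. The mean over both probes and arrays was -0.29.

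FN1, which encodes the matrix glycoprotein fibronectin, was measured by 3 probes, each lower than 0 in the mean but by unequal amounts. The brightest, A_24_P119745 at chr2:215934577-215934978 on the minus strand of hg18, is spotted 10 times and read 891 in control RNA and 892 in miR-204 RNA on the first array, and 613 and 565 on the swapped array. Its log2 ratios were 0.01 ± 0.05 and -0.12 ± 0.05 (SD over 10 spots), with 7 spots above 0 and 3 below on the first array and 10 below on the swapped array. The probe A_24_P85539, at chr2:215943371-215944906, read 175 and 121 on the first array and 113 and 102 on the swapped array, with log2 ratios of -0.53 and -0.15.

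The FN1 probe A_24_P334130, at chr2:215996462-215997140, was designed on transcript variant 7, while both other probes were designed on transcript variant 1. Its signal was 41.2 in control RNA and 24.7 in miR-204 RNA on the first array, and 24.3 and 18.1 on the swapped array, where the miR-204 signal was not well above background. The log2 ratios were -0.74 and -0.34. The gene mean over the 3 probes was -0.31, whereas the brightest probe alone gave -0.05, so that the FN1 value depends on how probes are combined. Whether the probes differ through their transcripts or their signal level was not tested.

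CTNNB1, which encodes beta-catenin, was measured by 2 probes that disagreed in direction on the swapped array. The probe A_23_P29495, at chr3:41256753-41256812 on the plus strand of hg18 and spotted 10 times, read 3271 in control RNA and 4469 in miR-204 RNA on the first array, and 2786 and 2603 on the swapped array. Its log2 ratios were 0.46 ± 0.03 and -0.10 ± 0.03 (SD over 10 spots), and all spots were above 0 on the first array and below 0 on the second. The spread over spots was therefore far smaller than the 0.57 between the arrays. The dimmer probe A_23_P29499, at chr3:41256258-41256317, read 273 and 313 on the first array and 164 and 196 on the swapped array. It was the brighter in miR-204 RNA on both, with log2 ratios of 0.19 and 0.25. The gene mean was 0.20.

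With the counted probes of a gene averaged, ZEB2 and TWIST1 had opposite signs on the 2 arrays, and the other members had the same sign on both. For CDH1 the mean was 0.27 to 0.46 under the 11 alternatives that used both arrays. CDH1 had no value with flagged probes left out whole, as its only probe carried flagged spots. For SNAI1 the mean was -0.28 to -0.23, for SNAI2 0.19 to 0.43 and for VIM -0.34 to -0.29 under 12 alternatives that used both arrays. None of these 4 genes passed 2-fold. With 1 array alone, the sign of ZEB2 turned to -0.33 on the swapped array and that of TWIST1 to 0.10 on the first array.

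**Figure D4:**
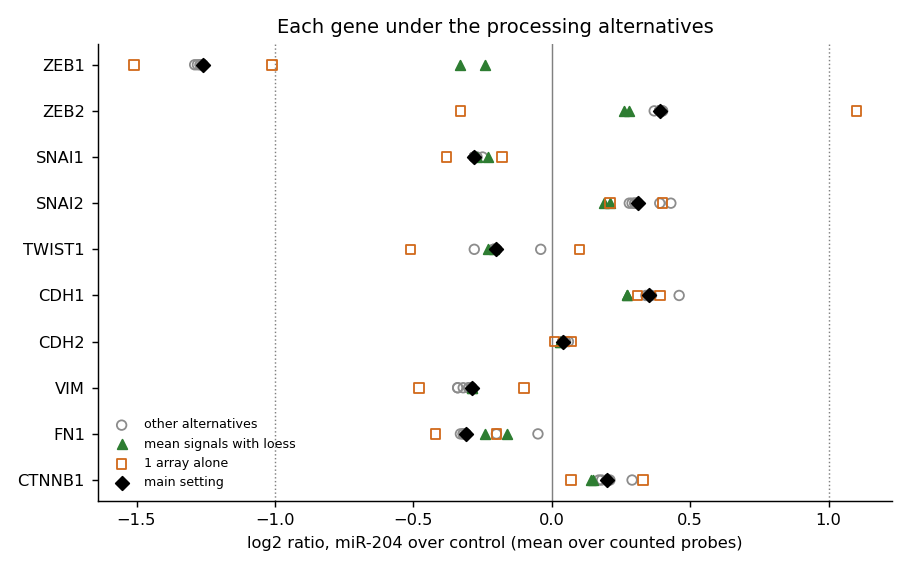
Log2 ratio of miR-204 over control RNA for each of the 10 genes, as the mean over its counted probes, in the setting reported (black diamonds), with mean signals and loess (green triangles), with 1 array alone (orange squares) and under the other alternatives (grey circles). ZEB1 lies at -0.24 and -0.33 with mean signals and loess and near -1.26 under most others, and ZEB2 lies at 1.10 and -0.33 with either array alone.

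Genes around these members were taken from 7 lists of 201 distinct genes in all, which covered epithelial genes, mesenchymal genes, other transcription regulators of EMT, co-repressors and turnover factors of the ZEB and SNAIL proteins, catenins and Wnt signaling genes, other classical cadherins and other intermediate filament genes. Of the 201 genes, 164 were counted, and 0 were lower and 0 higher by 2-fold. Of all 18635 gene symbols counted, 0.451% were lower and 0.145% higher. The median over the list genes was -0.03, against 0.000 over all symbols. At 1.5-fold, 5 list genes were lower and 3 higher, beside 2.06% and 1.44% of all symbols.

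Among epithelial genes, 32 of 42 were counted, with a median of -0.01, 16 below 0 and 16 above. The lowest was CGN, which encodes the tight junction protein cingulin, with log2 ratios of -1.14 (first array) and -0.14 (swap). One of the 2 CGN probes had ratios of -1.19 and -0.44, and the other had opposite signs, at -1.10 and 0.16. The highest was MARVELD2, which encodes tricellulin of tricellular junctions, at 0.25 and 0.28. Its 2 counted probes had means of 0.53 and 0.01. Neither end of this list showed a 2-fold mean. By gene mean, opposite signs on the arrays were found for 20 of its 32 counted genes and for 15 of the 30 counted mesenchymal genes. In the lists below, they were found for 8 of 28 other transcription regulators, 19 of 25 co-repressor and turnover genes and 19 of 32 catenin and Wnt genes. They were also found for 3 of 7 other classical cadherins and 4 of 12 other intermediate filament genes. The share of 52.7% over all probes well above background in every channel is for single probes, not gene means. Among mesenchymal genes, 30 of 42 were counted, with a median of -0.04, 17 below 0 and 13 above. CD44, the hyaluronan receptor, was the lowest of those well above background in all 4 channels, at -0.42 and -0.63, and LOX, which crosslinks collagen, was the highest at 0.79 and 0.31. Both had the same sign on each array, in opposite directions.

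Of the other transcription regulators, 28 of 31 were counted, with a median of -0.11, 18 below 0 and 10 above. The lowest was WWTR1, which encodes the Hippo pathway coactivator TAZ, with log2 ratios of -0.56 and -0.61. Its 3 counted probes had means of -0.40, -0.50 and -0.86 and were each lower on both arrays. KLF8, a Krüppel-like factor known to repress CDH1, was the highest at 0.29 and 0.47. Its counted probes had means of 0.18, from a dim probe well above background in 3 channels, and 0.58. The 25 co-repressor and turnover genes were all counted, with a median of 0.01. SMARCA4, the ATPase of SWI/SNF remodeling complexes, was at -1.08 and 0.12, and HDAC2, a histone deacetylase, at 0.55 and 0.02. Both extremes of that list therefore came from the first array alone.

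Of catenin and Wnt signaling genes, 32 of 35 were counted, with a median of -0.04. TCF7L1, a DNA-binding partner of beta-catenin, was the lowest at -0.94 and -0.46, and CTNND2, which encodes delta-catenin, the highest at 0.60 and 0.65. The 1 counted CTNND2 probe was dim, at 27.2 and 23.7 in control RNA and 41.6 and 36.1 in miR-204 RNA. Of the other classical cadherins, 7 of 16 were counted, with a median of 0.08. CDH7 was at -0.28 and -0.59 and CDH15 at 0.09 and 0.47. The counted CDH7 probes had means of -0.60, from a dim probe well above background in 3 channels, and -0.28. The CDH15 probe was dim too, with signals from 21.9 to 41.8. The 12 other intermediate filament genes had a median of 0.06, with NEFM, a neurofilament subunit, at -0.71 and -0.55 and INA, which encodes alpha-internexin, at 0.78 and 0.43. These 2 neuronal filament genes, both known for expression in HEK-293 cells, thus lay at opposite ends of the list with the same sign on both arrays.

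**Figure D5:**
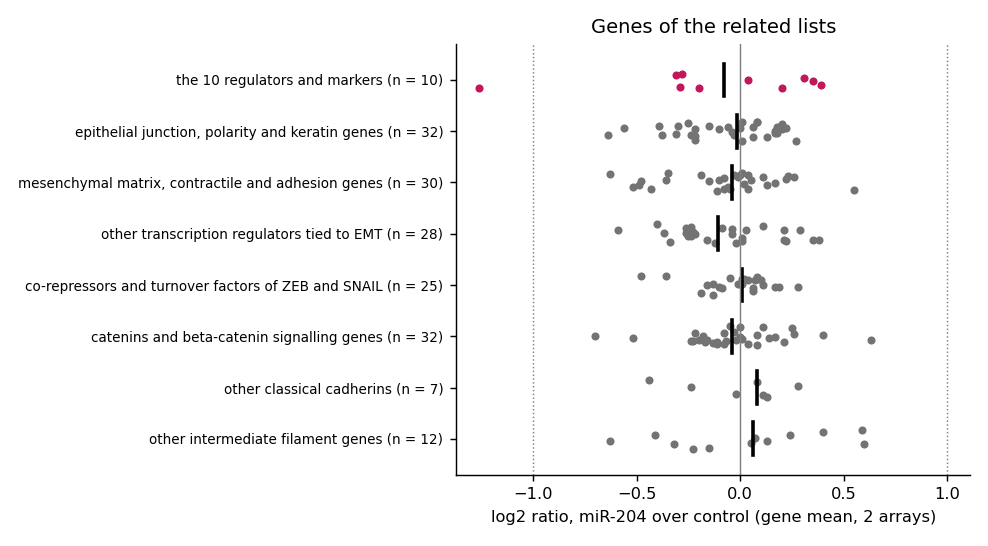
Log2 ratio of miR-204 over control RNA (gene mean over both arrays) for the counted genes of each list, with the 10 EMT regulators and markers in red, list genes in grey, list medians as black bars and 2-fold as dotted lines. ZEB1, at -1.26, is the only gene past 2-fold, and the medians of the 7 lists run from -0.11 to 0.08.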

How the data were processed

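Total RNA was measured on 2 two-colour arrays, a dye swap of the same comparison, counted as 1 replicate. Dose and time come from the labels. The authors extracted signals with Feature Extraction 9.5.3.1 and deposited, for each channel, processed intensity values corrected for background and dye, and uncorrected mean spot and local background intensity. The series table that the authors deposited gives log2 ratios in the direction miR-204 over control for both arrays, with medians of 0.00845 and -0.0184 (Pearson's r = 0.993 and 0.995 against the scanner ratios), and was used as an alternative only. The deposited log ratio and p-value of each spot were not used.

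Control spots and 208 flagged spots, on 128 probes, were left out. Leaving out flagged spots, and not whole probes, was chosen after seeing that the CDH1 probe had 2 flagged spots, and whole probes are an added alternative. Spots of a probe were averaged. Log2 processed signals were quantile normalized over 4 channels with limma 3.58.1 in R 4.3.3, and later steps used pandas 2.3.3 and scipy 1.17.1 in Python 3.11.15. The fold rule and the t-test with its adjustment were tried on simulated data with large planted changes. Normalization, background correction and the signal filter were not simulated. The ZEB1 control signal and the lowest signal set beside it were computed per channel from processed signals, already dye-normalized by the authors' software. Aquantile normalization between arrays was applied first. Both values are means over both dye orientations and hold for processed signals only. Probe coordinates were taken from the array files, whose build is hg18. Exons were not assigned, as no hg18 annotation was used. The microRNA sequences come from the RefSeq table of GRCh38.p14.

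No test was made across conditions, since there was 1 replicate. The t-test named in the methods was run over the channels as an alternative and compares 2 RNAs, not the conditions. The genes named are the 10 members, every list gene called at 2-fold and the lowest and highest gene of each list among those well above background in all 4 channels. The members and lists were chosen with earlier results of these data known. Alternatives changed the background correction, normalization, deposited values, filter, flags, arrays, threshold, test, gene summary and probe matching. Results for 1 marker list are not reported here. Precision is limited by the number of arrays.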

Additional observations from a re-analysis of the deposited data

How the results depend on the processing

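The single member probe lower by 2-fold, ZEB1, fell to a count of 0 with normexp and loess, to 0 without background correction and with loess, to 0 when probes had to be well above background in all 4 channels and to 0 after Benjamini-Hochberg adjustment of the methods' t-test. In that t-test 2 member probes, ZEB1 and CDH1, had an unadjusted p under 0.05, beside 1627 of 25340 counted probes unadjusted and 0 adjusted. The t-test took the channels of 1 dye swap as replicates and left out their pairing on an array. ZEB1 was counted through the control RNA alone, so its p-value gives no support to the difference. Leaving out each array in turn, the count of higher member probes ranged from 0 to 1, with ZEB2 past 2-fold on the first array alone, and the median of member probes ranged from -0.16 to 0.01. Without a filter on signal 2 list genes were lower, LGR5 and MMP14, and 1 was higher, CTNND2, and at 1.5-fold 5 were lower and 3 higher. The count of probes with opposite signs was 3 to 6 under its alternatives. No value of a called probe reversed. No paired analysis was possible because no second transfection is named, so that both arrays were counted as 1 replicate. Signals near background limit ZEB1 and the variant 7 probe of FN1, and the list genes CTNND2 and CDH15 were dim. The spread between cultures is unknown.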
